A study of Mus musculus with 9 samples.

Results

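The expression of 10 genes of retinal blood vessels was examined in whole mouse retina at postnatal day 28 (P28), out of 22337 genes in the expression table. They were chosen by name: the endothelial junction and adhesion genes Pecam1, Cdh5 and Cldn5, the endothelial receptors Kdr, Flt1 and Tek, the fenestration gene Plvap, the pericyte genes Pdgfrb and Rgs5, and the ligand gene Vegfa. All 10 were above the filter on low counts and were tested in each comparison. RNA-seq was performed on 9 libraries of 3 groups, with 3 libraries in each. The WT group was non-treated C57BL/6J mice. The NS group was rd10 mice that received normal saline (NS), and the MSC-EVs group was rd10 mice that received extracellular vesicles of human umbilical cord mesenchymal stem cells (MSC-EVs). Injections of 1 μl were given to both eyes of the rd10 mice on P14 and P21, so injection was shared by the rd10 groups and absent in WT. The rd10 mouse carries a mutation of Pde6b, a rod phosphodiesterase gene, and loses its rods in the weeks after birth. The treated rd10 mice were littermates, while the WT mice came from another supplier, so rd10 genotype, injection and source cannot be told apart in comparisons with WT. The labels do not give the sex of the animals or say whether libraries were separate animals, so p-values measure the spread between these libraries, which may be technical.

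The retina is fed by its own vessels in the inner layers and, from behind the pigment epithelium, by the choroid. Retinal capillaries are lined by endothelial cells joined by tight junctions, which form the inner blood-retina barrier, and are wrapped by pericytes. Vascular endothelial growth factor, made in the retina chiefly by Müller glia and other non-endothelial cells, acts on endothelial receptors, and the pericyte coat is recruited through platelet-derived growth factor signals. Retinal vessels become thin and sparse late in retinal degenerations that remove photoreceptors.

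The promoters of 4 genes are shown first, because these genes cover the receptors that rose in rd10, the receptor Tek that did not pass the test, and the pericyte gene Rgs5. Each line holds the 250 bases before the start of the gene in RefSeq (build GRCm38.p6), 5′ to 3′ on the strand of the gene, from chr5:75978456-75978705 on the minus strand for Kdr, chr5:147726012-147726261 on the minus strand for Flt1, chr4:94739039-94739288 on the plus strand for Tek, and chr1:169655251-169655500 on the plus strand for Rgs5. Capitals mark GGAA or its reverse complement TTCC, the core letters bound by ETS factors, a family that includes regulators of endothelial genes.
Kdr: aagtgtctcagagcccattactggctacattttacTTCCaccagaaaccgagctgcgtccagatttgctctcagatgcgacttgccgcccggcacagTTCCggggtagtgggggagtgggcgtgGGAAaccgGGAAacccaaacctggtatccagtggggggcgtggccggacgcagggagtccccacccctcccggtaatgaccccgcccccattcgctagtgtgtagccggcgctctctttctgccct
Flt1: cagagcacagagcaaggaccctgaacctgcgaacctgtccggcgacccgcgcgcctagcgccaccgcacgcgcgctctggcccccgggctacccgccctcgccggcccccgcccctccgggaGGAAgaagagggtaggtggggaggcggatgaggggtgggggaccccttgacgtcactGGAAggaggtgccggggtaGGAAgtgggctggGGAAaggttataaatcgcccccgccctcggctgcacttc
Tek: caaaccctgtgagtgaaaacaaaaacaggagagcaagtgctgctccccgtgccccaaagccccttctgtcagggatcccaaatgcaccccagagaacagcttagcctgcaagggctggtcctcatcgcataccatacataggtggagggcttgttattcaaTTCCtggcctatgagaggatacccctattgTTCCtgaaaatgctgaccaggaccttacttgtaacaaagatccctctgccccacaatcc
Rgs5: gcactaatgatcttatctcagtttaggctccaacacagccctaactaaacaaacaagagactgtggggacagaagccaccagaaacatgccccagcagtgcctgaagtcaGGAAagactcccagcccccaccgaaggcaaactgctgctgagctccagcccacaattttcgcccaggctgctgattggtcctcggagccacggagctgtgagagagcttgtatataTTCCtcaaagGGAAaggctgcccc
The ETS core was found 4 times in the Kdr window, 4 times in that of Flt1, 2 times in that of Tek and 3 times in that of Rgs5. It was absent from the window of Cldn5. Of 32851 RefSeq windows of the same length, 93.4% held it at least once, with a median of 3 matches, so its presence did not set these genes apart. The GC box GGGCGG, searched on both strands, was found 2 times for Kdr, 3 times for Flt1 and once for Cldn5, and not for Tek or Rgs5, against 32.7% of all windows. The TATA box TATAAA was found among these windows only in that of Flt1, against 12.4% of all windows. The GC box and the ETS core can share bases but did not do so in the printed windows, and a match describes letters and not a bound site. Windows were available for 6 of the 10 genes, among them Vegfa with 2 windows. Those of Vegfa held the ETS core 2 and 6 times and the GC box 1 and 2 times, without a TATA box.

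Depth ranged from 19491721 to 62532357 estimated counts per library, and MSC-EVs replicate 3 was the deepest. The rod transducin gene Gnat1 was lower in every rd10 library (2791 to 4350 CPM, which are counts in each 1000000 counts of a library) than in WT (14820 to 16300 CPM), as their genotype labels read. Genes of the Y chromosome summed to 183 and 189 CPM in MSC-EVs replicates 1 and 2 and to 0.501 CPM or less in the other 7 libraries. The rd10 groups therefore differed in Y-linked expression as well as in treatment, and each comparison with the MSC-EVs group was also run without these 2 libraries, which leaves 1 library in it.

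In NS-treated rd10 retina, 9 of the 10 genes were higher than in WT and none was lower (edgeR quasi-likelihood test, Benjamini-Hochberg adjusted p below 0.05). Among all genes tested, 31.2% were higher and 30.1% lower, so calls were frequent and 61.3% of the 14644 genes passed the test. The median log2 fold change of the 10 genes was 0.52, beside 0.01 over all genes tested. The largest increase was 2.12-fold for Plvap, the only one of the 10 that at least doubled, against 12.7% of all genes that changed by this size. Tek was the gene that did not pass the test. For the same 9 genes every NS library exceeded every WT library, against 33.7% of all genes. In bulk retina, more vessel cells in the sample and more RNA in each vessel cell cannot be told apart.

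The increase was then read on another scale, since the rod genes make up much less of the RNA in rd10 libraries and CPM are shares of a total. The counts were scaled so that the 18 inner retinal neuron genes kept their level. This moved the median log2 fold change of all genes from 0.01 to -0.29, and the calls over all genes became 2160 higher and 7100 lower (14.8% and 48.5%), from 4562 and 4410. On this scale 4 of the 10 genes remained higher in NS: Kdr, Flt1, Plvap and Rgs5. The log2 fold change of Vegfa became -0.10 (adjusted p = 0.387) and that of Tek -0.13 (adjusted p = 0.46), both from positive values. Pecam1, Cdh5, Cldn5 and Pdgfrb stayed positive at 0.14 to 0.25 without passing the test. The 95% intervals and both scales are drawn in the plot of fold changes.

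**Figure D1:**
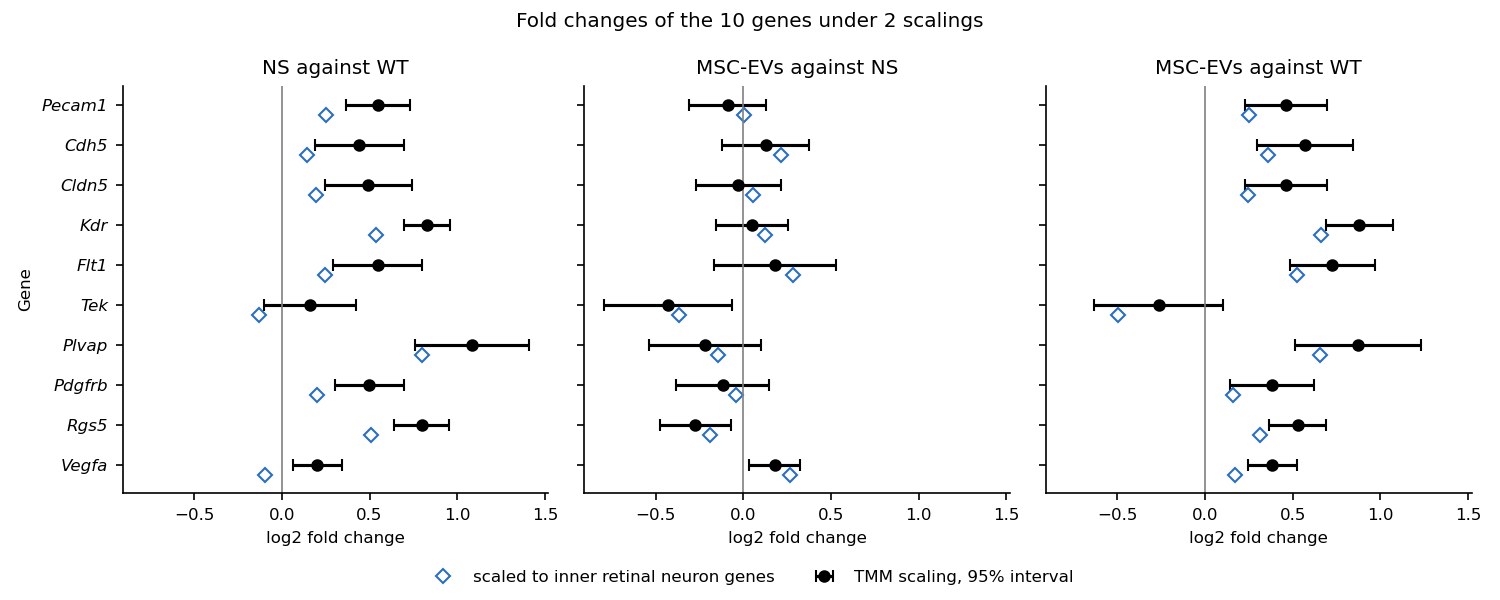
Log2 fold changes of the 10 genes (x axis) in 3 comparisons, with black points and bars for the fit scaled by TMM with its 95% interval and open diamonds for the fit scaled to 18 inner retinal neuron genes. In NS against WT and in MSC-EVs against WT the diamonds lie to the left of the points, and in MSC-EVs against NS they lie to the right.

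Pecam1, which encodes the adhesion molecule CD31 at endothelial contacts (chr11:106654217-106750628, GRCm38 by GENCODE, minus strand), was at 14.5, 15.9 and 16.5 CPM in WT, 23.0, 22.8 and 22.8 CPM in NS, and 20.99, 24.0 and 19.4 CPM in MSC-EVs. All rd10 libraries were above all WT libraries, and the NS libraries lay close together while the MSC-EVs libraries spread on both sides of them. Its fold change in NS against WT was 1.46 (95% interval 1.29 to 1.66, adjusted p = 0.000118).

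Cdh5 encodes VE-cadherin, the adherens junction protein of endothelium (chr8:104101625-104144511, plus strand). It was at 8.93, 11.1 and 11.3 CPM in WT, 15.3, 13.8 and 13.3 CPM in NS, and 16.7, 15.8 and 13.9 CPM in MSC-EVs. The groups of rd10 overlapped each other and did not overlap WT, and the fold change in NS against WT was 1.36 (1.14 to 1.62, adjusted p = 0.00613). The gene lies across from Gm29682 on the other strand, so reads of the pair may be shared where the counting did not use strand.

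Cldn5 encodes claudin-5, the main claudin of tight junctions at blood-tissue barriers (chr16:18776847-18778262, plus strand). It was at 8.93, 10.03 and 10.5 CPM in WT, 15.3, 13.3 and 12.7 CPM in NS, and 13.4, 13.4 and 13.5 CPM in MSC-EVs. All rd10 libraries exceeded all WT libraries, with 1.41-fold higher expression in NS (1.18 to 1.67, adjusted p = 0.00259). The counts were low, from 199 to 452 in the WT and NS libraries.

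Among the receptors, Kdr and Tek stood furthest apart. Kdr, which encodes VEGF receptor 2 (chr5:75932827-75978458, minus strand), was at 169, 166 and 158 CPM in WT, 306, 292 and 277 CPM in NS, and 343, 266 and 292 CPM in MSC-EVs. The WT libraries were tightly grouped below all rd10 libraries, and the fold change in NS against WT was 1.77 (1.62 to 1.94, adjusted p = 2.33e-07). Its adjusted p was the lowest among the 10. Kdr has also been described in retinal neurons and Müller glia, so its level need not come from vessels alone.

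Flt1, which encodes VEGF receptor 1, a receptor that also traps VEGF as a soluble form (chr5:147561604-147726011, minus strand), was at 117, 124 and 112 CPM in WT, 199, 141 and 176 CPM in NS, and 200, 219 and 163 CPM in MSC-EVs. NS replicate 2 was nearest to WT and still above it. The fold change in NS against WT was 1.46 (1.22 to 1.74, adjusted p = 0.00246).

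Tek encodes Tie2, the angiopoietin receptor that holds vessels quiescent (chr4:94739289-94874976, plus strand). It was at 8.93, 11.1 and 11.3 CPM in WT, 10.6, 12.2 and 12.4 CPM in NS, and 9.70, 6.58 and 9.49 CPM in MSC-EVs. WT and NS overlapped, with a fold change of 1.12 (0.932 to 1.34, adjusted p = 0.264), so an increase of the size of Kdr lay outside the interval of Tek. All 3 MSC-EVs libraries were below all NS libraries. Tek and Cdh5 had the same 3 estimated counts in WT (199, 247 and 225) but different FPKM, the deposited value per transcript length and library size; 4 of 11368 genes with at least 100 counts in WT shared all 3 counts with another gene.

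Plvap encodes the protein of the diaphragms in fenestrated endothelium, which retinal vessels behind an intact barrier have little of and choroidal vessels have in abundance (chr8:71497765-71511752, minus strand). It was at 3.77, 4.57 and 3.65 CPM in WT, 8.28, 9.41 and 7.87 CPM in NS, and 6.52, 7.39 and 7.88 CPM in MSC-EVs. No rd10 library reached down to WT. The fold change in NS against WT was 2.12 (1.69 to 2.66, adjusted p = 5.81e-05), from 73 to 102 counts in WT and 172 to 245 in NS. The gene lies across from Gtpbp3 on the other strand.

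Pericytes were followed through Pdgfrb, the receptor that recruits them to endothelium (chr18:61045150-61085061, plus strand), and Rgs5, a regulator of G protein signalling enriched in them (chr1:169655501-169695813, plus strand). Pdgfrb was at 19.2, 21.3 and 21.4 CPM in WT, 32.0, 27.9 and 27.5 CPM in NS, and 27.6, 22.6 and 29.8 CPM in MSC-EVs, 1.41-fold higher in NS than in WT (1.23 to 1.62, adjusted p = 0.000448). Rgs5 was at 85.9, 91.0 and 82.8 CPM in WT, 135, 153 and 165 CPM in NS, and 138, 117 and 118 CPM in MSC-EVs. Its fold change in NS against WT was 1.74 (1.56 to 1.94, adjusted p = 1.62e-06). For both genes the WT libraries lay below all rd10 libraries.

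Vegfa, the ligand of Kdr and Flt1 (chr17:46016993-46032369, minus strand), was at 96.6, 108 and 110 CPM in WT, 117, 116 and 129 CPM in NS, and 141, 136 and 132 CPM in MSC-EVs. The 3 groups did not overlap, in the order WT, NS, MSC-EVs. Its increase in NS was the smallest of the 9 called, 1.15-fold (1.04 to 1.27, adjusted p = 0.0165). It lost the call without WT replicate 1 (adjusted p = 0.0848) and without NS replicate 3 (adjusted p = 0.0734).

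**Figure D2:**
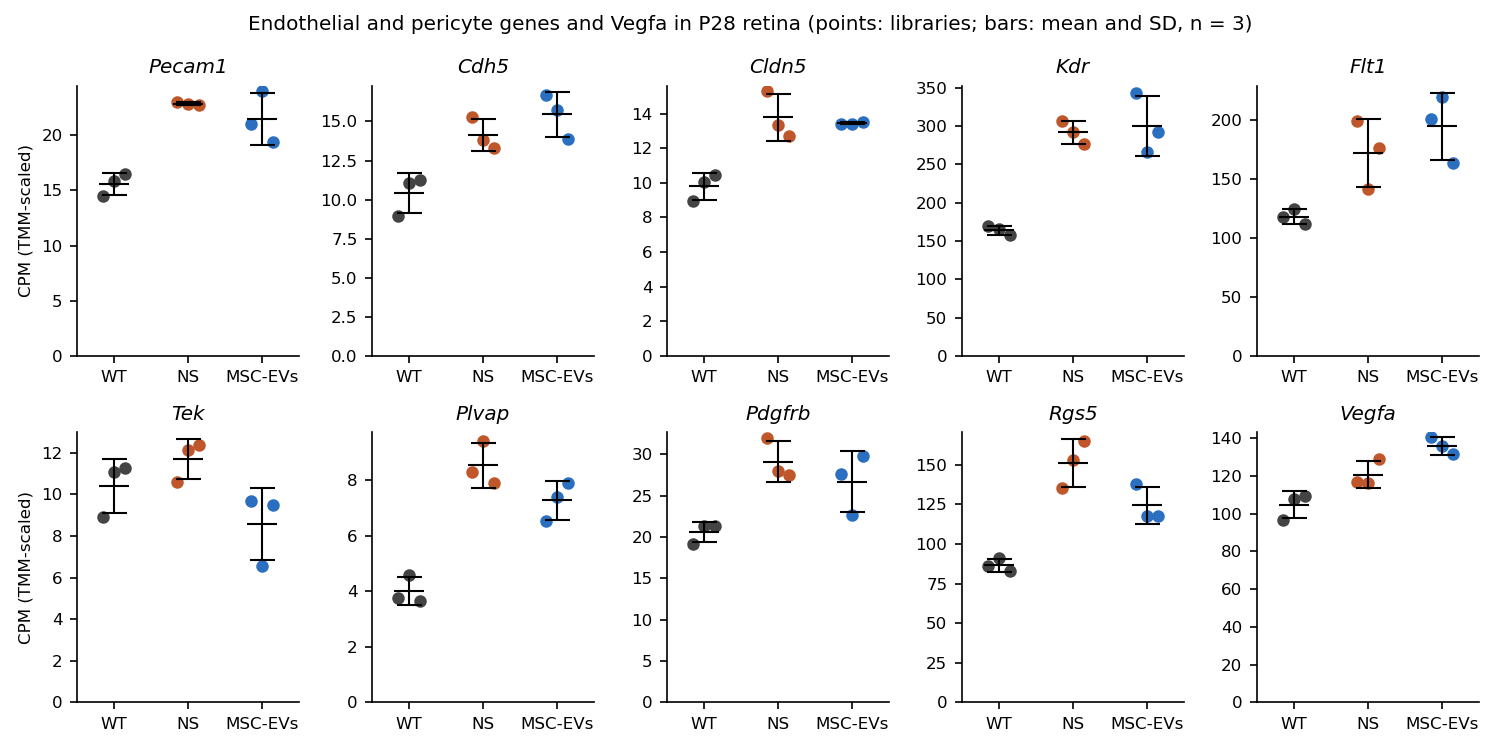
Expression of each of the 10 genes (y axis, CPM scaled by TMM) in each library of the 3 groups (points), with the mean and SD of 3 libraries (bars). In 9 panels all WT points lie below all rd10 points, and in the Tek panel they do not.

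Levels were compared between genes only per length, as the deposited FPKM. In WT the order was Vegfa (30.1 ± 1.68 FPKM, SD, n = 3), Kdr (25.6 ± 1.01), Rgs5 (19.6 ± 1.02), Flt1 (16.3 ± 0.954), Cldn5 (6.41 ± 0.518), Pecam1 (4.56 ± 0.558), Pdgfrb (3.53 ± 0.217), Cdh5 (2.41 ± 0.303), Tek (2.12 ± 0.293) and Plvap (1.86 ± 0.244). The libraries of Cdh5 and Tek overlapped, as did those of Tek and Plvap, and all other neighbours in the order were apart. In NS, Kdr came first (51.5 ± 2.20 FPKM), ahead of Vegfa (39.8 ± 1.92) and Rgs5 (38.7 ± 4.09), whose libraries overlapped. Tek came last in both rd10 groups, at 2.70 ± 0.264 FPKM in NS and 1.96 ± 0.407 in MSC-EVs, while Plvap rose past Cdh5 in NS (4.48 ± 0.420 against 3.69 ± 0.239). In MSC-EVs, Rgs5 and Flt1 overlapped, as did Cdh5 and Plvap. Fragments of Kdr and Flt1 were thus several times more frequent per length than those of Pecam1 and Cdh5, though those of Kdr need not come from vessels alone.

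Ratios within each library asked whether genes of the vessel wall moved in proportion. They depend on the scaling of libraries only through the 0.5 added to CPM. Each is a difference of log2(CPM + 0.5), and an exact two-sided permutation test of 3 libraries against 3 cannot give a p below 0.1. The ratio of Pdgfrb and Rgs5 to Pecam1 and Cdh5 was 1.70 ± 0.099 in WT (SD, n = 3), 1.86 ± 0.071 in NS and 1.64 ± 0.225 in MSC-EVs, and the groups overlapped. The difference of NS from WT was 0.16 (exact permutation p = 0.2), and with Pdgfrb alone it was 0.00.

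The ratio of Plvap to Pecam1 and Cdh5 was -1.48, -1.44 and -1.77 in WT and -1.13, -0.88 and -1.10 in NS. All NS libraries were above all WT libraries, by 0.52 on the log2 scale (1.44-fold, exact permutation p = 0.1, the smallest possible). In MSC-EVs it was -1.45, -1.34 and -1.01, which overlapped both other groups.

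The ratio of Tek to the same genes was added after the values of Tek were seen. It was -0.34, -0.25 and -0.26 in WT, -0.80, -0.53 and -0.48 in NS, and -0.91, -1.50 and -0.76 in MSC-EVs. Both rd10 groups were below WT in every library, with differences of -0.32 for NS and -0.77 for MSC-EVs from the same WT libraries, and they overlapped each other. These are a description, with no test.

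Vegfa was compared with 7 genes of Müller glia (Rlbp1, Glul, Slc1a3, Aqp4, Kcnj10, Dkk3 and Car14). Its ratio to them was -1.67, -1.54 and -1.41 in WT, -2.03, -1.96 and -1.92 in NS, and -1.58, -1.49 and -1.44 in MSC-EVs. NS was below both other groups in every library, by -0.43 against WT (0.741-fold), while MSC-EVs was above NS by 0.47 (1.39-fold), each with an exact permutation p of 0.1. These differences share the NS libraries. MSC-EVs and WT overlapped, with a difference of 0.04. The Müller glia genes moved on their own account: 6 of 7 rose in NS against WT, and Car14, a carbonic anhydrase, fell by 0.51 on the log2 scale in MSC-EVs against NS (adjusted p = 0.032), a call lost without NS replicate 1, NS replicate 3, MSC-EVs replicate 1 or MSC-EVs replicate 3 (adjusted p 0.0558 to 0.169), on the neuron scale (0.0846), and in the fits that rest on MSC-EVs replicate 3 alone, without MSC-EVs replicates 1 and 2 (0.0669) or with Y-linked expression (0.0729).

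**Figure D3:**
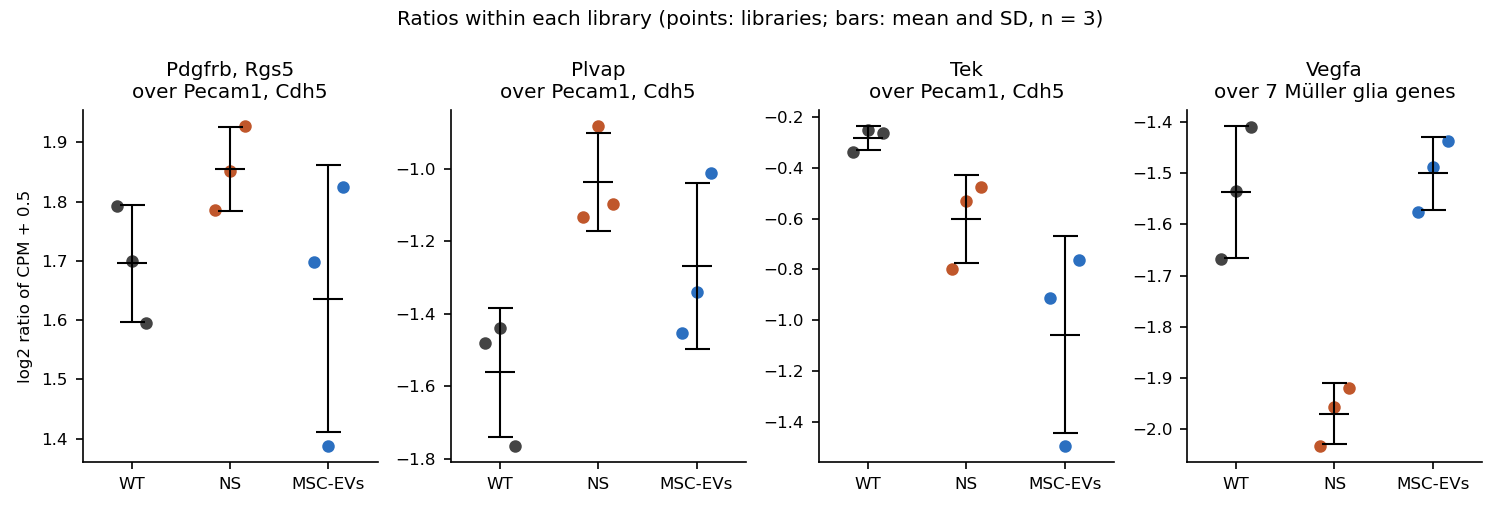
Log2 ratios of CPM + 0.5 (y axes, each with its own range) in each library of the 3 groups (points), with the mean and SD of 3 libraries (bars). The ratio of Plvap is higher in every NS library than in every WT library, and the ratio of Vegfa to Müller glia genes is lowest in NS.

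In MSC-EVs-treated against NS-treated rd10 retina none of the 10 genes passed the test with edgeR, nor with DESeq2 or limma, and 3 of the 10 had an unadjusted p below 0.05 with edgeR. Of all genes tested, 1.16% passed (172 of 14765) and 20.2% had an unadjusted p below 0.05. The number of genes that passed fell to 0 without NS replicate 3 or MSC-EVs replicate 1 and to 32 without NS replicate 2, and was 676 without MSC-EVs replicate 2. The median log2 fold change of the 10 was -0.06, beside 0.00 over all genes. The libraries did not overlap for Vegfa, which was higher in MSC-EVs, and for Tek, which was lower, against 26.3% of all genes.

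The intervals give the fold changes that the spread between these libraries leaves under TMM scaling. They do not separate treatment from Y-linked expression, in which the rd10 groups also differed. For Pecam1 the fold change was 0.939 (95% interval 0.807 to 1.09), for Cldn5 it was 0.979 (0.828 to 1.16) and for Kdr it was 1.03 (0.897 to 1.19). A doubling or halving lay outside each of these intervals. Cdh5 was at 1.09 (0.920 to 1.3), Flt1 at 1.13 (0.889 to 1.44) and Pdgfrb at 0.921 (0.768 to 1.11). Without MSC-EVs replicates 1 and 2, which leaves 1 library in that group, the log2 fold changes of Cdh5, Flt1 and Pdgfrb were -0.016, -0.065 and 0.041, and with Y-linked expression in the fit, which rests on the same library, they were -0.01, -0.054 and 0.049. In these fits the lone library is assumed to vary like the others.

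The 3 genes with an unadjusted p below 0.05 were Rgs5 (0.827-fold, 0.718 to 0.952, adjusted p = 0.142), Vegfa (1.13-fold, 1.02 to 1.25, adjusted p = 0.172) and Tek (0.741-fold, 0.575 to 0.956, adjusted p = 0.183). Plvap was at 0.859-fold (0.689 to 1.07, adjusted p = 0.424). Tek had its lowest value, 6.58 CPM, in MSC-EVs replicate 2, the library in which the fibroblast genes were highest of the group (73.3 CPM in sum against 22.9 and 21.8 CPM). The part of these other cells in the value of Tek was not tested.

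Against WT, MSC-EVs-treated rd10 retina was compared with the same WT libraries as NS-treated retina. Of the 10 genes 9 were higher and none was lower, against 28.3% higher and 27.2% lower of 14623 genes, and none of the 9 doubled (12.2% of all genes changed by this size). For these 9 genes all MSC-EVs libraries exceeded all WT libraries, against 31.9% of all genes. Fold changes of the 9 ranged from 1.3 for Vegfa (1.18 to 1.44, adjusted p = 0.000591) and Pdgfrb (1.10 to 1.54, adjusted p = 0.0125) to 1.84 for Kdr (1.61 to 2.10, adjusted p = 3.28e-05). Plvap was 1.83-fold higher (1.43 to 2.34, adjusted p = 0.0012), Flt1 1.65-fold and Rgs5 1.44-fold. Tek was at 0.832-fold (0.645 to 1.07, adjusted p = 0.196). Scaled to inner retinal neurons, Kdr, Flt1, Plvap and Rgs5 remained higher (15.8% of all genes were higher and 42.5% lower), and Tek passed the test as lower (log2 fold change -0.50, adjusted p = 0.0207). Pdgfrb lost its call without WT replicate 1 (adjusted p = 0.0587).

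Other genes of vessels were taken by list, and their counts in NS against WT stand beside 31.2% higher and 30.1% lower of all genes, or 14.8% and 48.5% when scaled to inner retinal neurons. Of 20 other endothelial genes, 10 rose in NS against WT, none fell and 10 did not pass the test, with a median log2 fold change of 0.44 (0.15 scaled to inner retinal neurons, with 7 higher). The smallest adjusted p values were those of Vwf, the von Willebrand factor of endothelium and platelets, at 11.7, 14.6 and 13.8 CPM in WT and 48.1, 53.8 and 36.9 CPM in NS (3.46-fold, adjusted p = 2.4e-06), and Cd34, a sialomucin of endothelial and progenitor cells (1.90-fold, adjusted p = 3.35e-06). The fold change of Vwf was larger than that of any of the 10 genes. None of the 20 passed in MSC-EVs against NS.

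Of 14 genes of the blood-retina barrier and endothelial transport, 6 rose, 2 fell and 6 did not pass in NS against WT, and 5 rose and 4 fell when scaled to inner retinal neurons. Mfsd2a, a lipid transporter that keeps transcytosis low in barrier endothelium, was at 3.90, 3.98 and 3.80 CPM in WT, 17.0, 14.2 and 17.7 CPM in NS, and 8.03, 11.3 and 10.1 CPM in MSC-EVs. It rose 4.17-fold in NS (adjusted p = 6.43e-08). The 3 MSC-EVs libraries lay between the WT and NS libraries, without passing the test against NS (0.605-fold, adjusted p = 0.0521). Cavin1, a coat protein of caveolae, rose 2.0-fold (adjusted p = 1.08e-05). The genes that fell were the organic anion transporters Slco1c1 (0.521-fold, adjusted p = 0.000267) and Slco1a4 (0.782-fold, adjusted p = 0.00144), so members of this list moved in both directions.

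Of 4 leukocyte adhesion genes, 2 were tested and both rose in NS. Icam1, which binds leukocyte integrins, went from 0.449 to 0.751 CPM in WT to 7.88 to 9.56 CPM in NS (15.1-fold, adjusted p = 3.02e-08). Vcam1 went from 20.1 to 23.3 CPM to 67.4 to 90.4 CPM (3.71-fold, adjusted p = 2.23e-07). Both are also made by glia and immune cells. The selectin genes Sele and Selp were at 0 in 2 and 4 libraries and were not tested. All 9 microglia and macrophage genes rose in the same libraries, among them C1qa (11.6-fold) and C1qb (12.3-fold), and their sum was 37.0 to 39.3 CPM in WT, 246 to 313 CPM in NS and 216 to 388 CPM in MSC-EVs. The part of these cells in the adhesion genes was not tested.

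Of 14 other genes of pericytes and vascular smooth muscle, 13 were tested in NS against WT; 7 rose, 1 fell and 5 did not pass, and on the neuron scale 4 rose and 3 fell. Mcam, an adhesion molecule of pericytes and endothelium, rose 3.04-fold (adjusted p = 1.77e-06) and Abcc9, a channel subunit of pericytes, rose 1.56-fold (adjusted p = 6.43e-05). Vtn, vitronectin, fell from 840 to 943 CPM to 230 to 293 CPM (0.299-fold, adjusted p = 2.3e-08). Vtn is also made by photoreceptors, and all 8 rod genes fell, among them Gnat1 (0.229-fold) and Pde6g (0.240-fold); the part of rods in the fall of Vtn was not tested. None of the 14 genes passed in MSC-EVs against NS, where the median log2 fold change was -0.45, beside 0.00 over all genes. Several of the 14 were low, with Cnn1 at 4 to 16 counts in NS. Acta2 and Tagln were highest in NS replicate 2 (13.5 and 8.33 CPM). The summed CPM of the list, most of it Vtn, overlapped between the groups (304 to 381 in NS and 283 to 381 in MSC-EVs).

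The growth factor network around Vegfa rose in part. Of 15 other ligands and receptors of the VEGF, angiopoietin and PDGF families, 14 were tested; 10 rose, none fell and 4 did not pass, and 2 rose when scaled to inner retinal neurons. Pgf, placental growth factor, the ligand of Flt1, was at 0.718, 0.627 and 0.300 CPM in WT, 3.75, 7.70 and 3.34 CPM in NS and 3.72, 11.02 and 1.88 CPM in MSC-EVs (8.72-fold in NS, adjusted p = 8.27e-05). Its highest values stood in replicate 2 of each rd10 group. Pdgfra, the receptor of retinal astrocytes and fibroblasts, rose 2.17-fold (adjusted p = 1.18e-06).

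Of 12 norrin, Notch and apelin genes, 10 were tested in NS against WT; 6 rose, 3 fell and 1 did not pass, and on the neuron scale 4 rose and 3 fell. Lrp5, a norrin co-receptor, rose 2.34-fold (adjusted p = 1.13e-06), while Fzd4, the norrin receptor, fell (0.758-fold, adjusted p = 0.00356). Jag1, a Notch ligand, fell from 152 to 157 CPM to 40.4 to 48.8 CPM (0.293-fold, adjusted p = 2.21e-09). Bulk retina does not show which cells made the RNA of this list. The 8 rod genes also fell in these libraries, and the part of rods in the fall of Jag1 was not tested. Notch1 rose in NS (1.76-fold, adjusted p = 1.41e-05) and again in MSC-EVs against NS, at 88.3, 90.8 and 93.2 CPM against 70.0, 58.9 and 71.5 CPM (1.36-fold, adjusted p = 0.0424). It was the only gene of the vessel lists that passed in that comparison. It lost the call in each fit without 1 library except that without MSC-EVs replicate 2 (adjusted p 0.0595 to 0.173). The call was also lost with upper-quartile scaling (adjusted p = 0.0518) and with limma on FPKM (adjusted p = 0.0864 and 0.0913). The log2 fold change was 0.45 with all libraries, 0.49 without MSC-EVs replicates 1 and 2 (adjusted p = 0.0778) and 0.50 with Y-linked expression in the fit (adjusted p = 0.0808), both of which rest on MSC-EVs replicate 3 alone.

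Of 12 genes of the response to hypoxia, 11 were tested in NS against WT; 4 rose, 3 fell and 4 did not pass, with a median log2 fold change of 0.05. On the neuron scale 3 rose and 6 fell, with a median of -0.24. Adm, adrenomedullin, rose 5.01-fold from 0.494 to 0.751 CPM in WT (adjusted p = 2.05e-05) and Pfkfb3, a driver of glycolysis, rose 1.60-fold (adjusted p = 4.12e-05). Ldha, lactate dehydrogenase A, fell to 0.606-fold (adjusted p = 3.27e-06) and Hif1a, the hypoxia-inducible factor subunit, to 0.865-fold (adjusted p = 0.0107, and 0.0521 without WT replicate 1). All 8 rod genes fell in the same libraries, and the part of rods in the falls of Ldha and Hif1a was not tested.

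Of 8 genes of the vascular basement membrane, 7 rose in NS on both scales and none fell. Sparc, a matrix protein of glia and endothelium, rose from 299.6 to 317 CPM to 795 to 841 CPM (2.64-fold, adjusted p = 2.21e-09) and Lama5, a laminin chain, rose 2.72-fold (adjusted p = 2.92e-08). Their median log2 fold change was 1.31, beside 0.52 for the 10 genes and 0.01 for all genes.

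**Figure D4:**
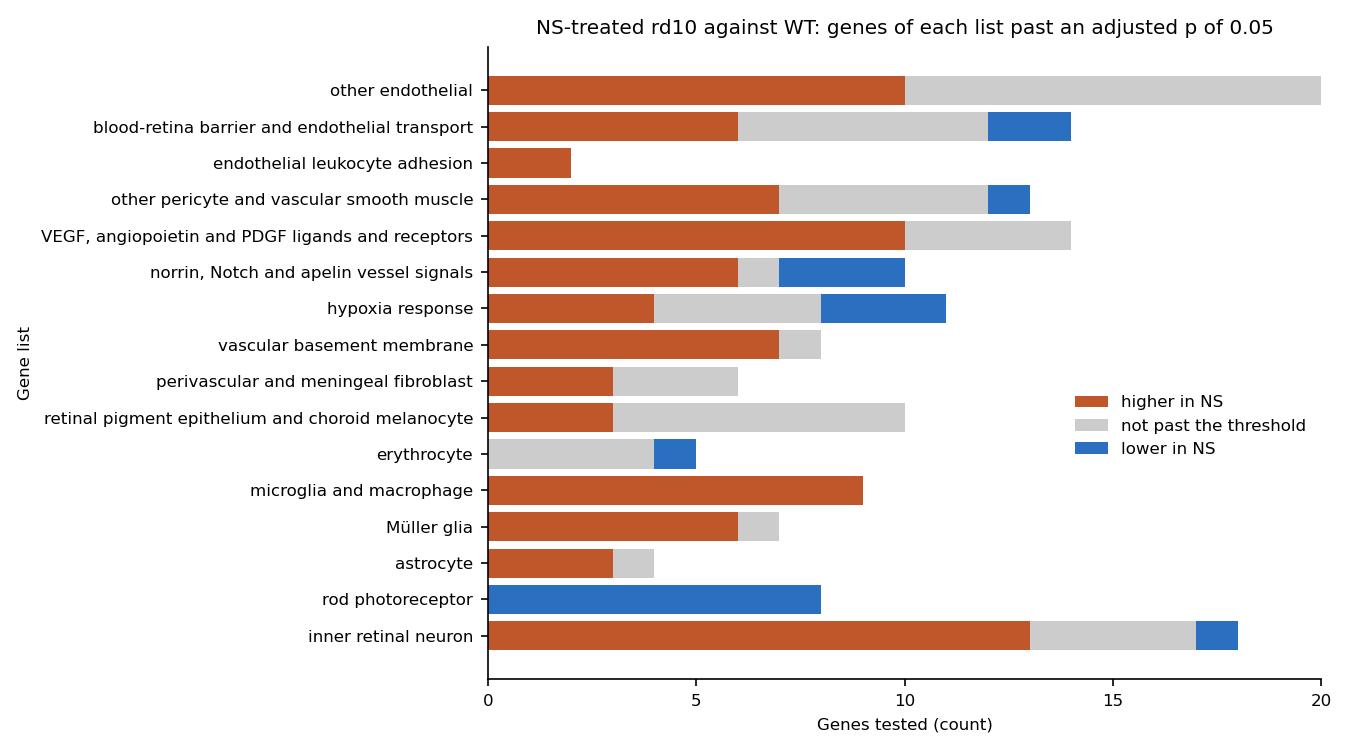
Number of genes tested in each of 16 lists (x axis), split into those that rose in NS against WT, those not past an adjusted p of 0.05 and those that fell. The lists of leukocyte adhesion (2 genes), microglia and rod photoreceptors lie wholly on one side. The barrier, pericyte, norrin, hypoxia and inner retinal neuron lists hold both higher and lower genes.

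Markers of cells beside the retinal vessels were set against these values. The 10 genes of pigment epithelium and choroid melanocytes all had counts in every library and summed to 62.1 to 112 CPM in WT, 76.5 to 304 CPM in NS and 90.2 to 237 CPM in MSC-EVs. Of these 10, 3 rose in NS (31.2% of all genes rose), among them Tyr (3.92-fold, adjusted p = 0.0193) and Dct (5.27-fold, adjusted p = 0.031), both enzymes of melanin synthesis. Tyr lost its call without WT replicate 1, WT replicate 3 or NS replicate 3 (adjusted p 0.0588 to 0.0769), and Dct lost it in each fit without 1 library except that without NS replicate 2 (0.0652 to 0.0977). Plvap was highest, at 9.41 CPM, in NS replicate 2. The sum of these genes was lowest of the group there, at 76.5 CPM, within the WT range. Single genes differed in that library. Dct (17.0 CPM), Tyr (2.16), Pmel (6.91), Slc45a2 (0.784) and Best1 (1.18) were above every WT library. Rpe65 (3.33 CPM) and Rgr (10.05) were below every WT library, and Ttr, Lrat and Mlana were within the WT range. In the MSC-EVs libraries Plvap was at 6.52, 7.39 and 7.88 CPM where the pigment genes were at 101, 90.2 and 237 CPM, so within this group both were highest in replicate 3. The part of these cells in the level of Plvap was not tested.

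Of 8 genes of perivascular and meningeal fibroblasts, 6 had counts in every library, and the defining genes Lum and Dpt were at 0 in 3 and 5 libraries. Their sum was 10.4 to 13.8 CPM in WT, 48.9 to 76.1 CPM in NS and 21.8 to 73.3 CPM in MSC-EVs. Of the 6 tested in NS against WT, 3 rose, among them Col1a2 (3.13-fold, adjusted p = 5.69e-06) and Fbln1 (13.5-fold, adjusted p = 0.000148). Fbln1 was at 5.02, 42.0 and 4.70 CPM in MSC-EVs. Pdgfrb is also made by fibroblasts, and in MSC-EVs it was lowest in replicate 2, where Fbln1 was highest; the part of these cells was not tested. Of 5 erythrocyte genes none rose in NS; all 5 fell on the neuron scale, and on the main scale Hbb-bs fell (0.804-fold, adjusted p = 0.0193), a call lost without WT replicate 1 (adjusted p = 0.114) or NS replicate 2 (adjusted p = 0.0535). Their sum was 68.8 to 93.8 CPM in WT and 63.9 to 67.2 CPM in NS.

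Of 4 astrocyte genes, 3 rose in NS, among them Gfap (6.35-fold, adjusted p = 0.000532) and Aldh1l1 (3.47-fold, adjusted p = 1.16e-05). Gfap is also made by Müller glia under stress. The Müller glia genes summed to 4350 to 4630 CPM in WT, 5080 to 6020 CPM in NS and 4250 to 4690 CPM in MSC-EVs, with Aqp4 (2.02-fold, adjusted p = 1.15e-07) and Dkk3 (1.77-fold, adjusted p = 1.42e-07) leading the rise in NS. Glul was the largest part of this sum, at means of 2733 CPM in WT, 2682 CPM in NS and 1900 CPM in MSC-EVs. It did not pass the test in MSC-EVs against NS (0.712-fold, adjusted p = 0.14). In MSC-EVs against WT, 5 of the 7 genes were higher and 1, Glul, was lower (0.698-fold). Vegfa was higher in MSC-EVs than in NS in every library while the Müller glia sum was lower. Of the 18 inner retinal neuron genes, 13 rose and 1 fell, with Isl1 at 1.57-fold and Prkca at 0.852-fold in NS, which is the shift that the second scale removed.

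**Figure D5:**
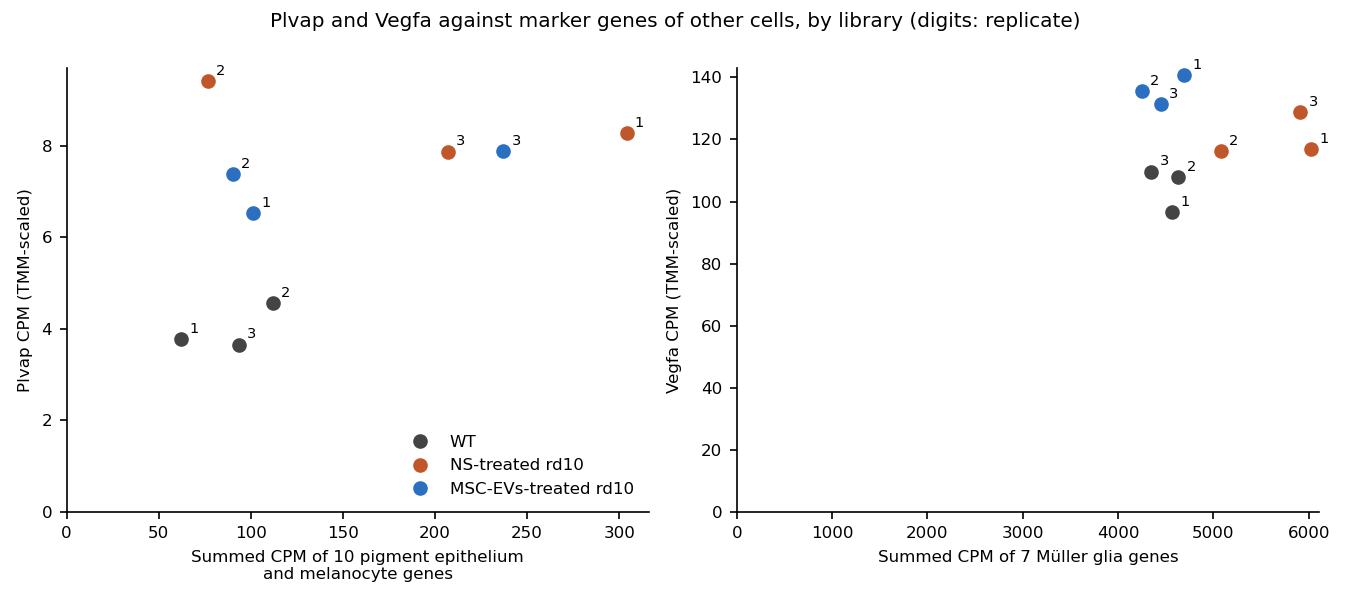
Left, Plvap (y axis, CPM) against the summed CPM of 10 pigment epithelium and melanocyte genes in each library (x axis), and right, Vegfa against the summed CPM of 7 Müller glia genes, with replicate numbers beside the points. Plvap is highest in NS replicate 2, where the pigment genes sum to 76.5 CPM. They are drawn only in sum. In that library Dct, Tyr, Pmel, Slc45a2 and Best1 were above every WT library, and Rpe65 and Rgr were below. Vegfa is higher in MSC-EVs than in NS at lower Müller glia sums, of which Glul is the largest part.

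From library to library within groups the endothelial genes moved together only loosely. After removal of group means, the 15 pairs among Pecam1, Cdh5, Cldn5, Kdr, Flt1 and Tek had correlations from -0.54 (Flt1 with Tek) to 0.76 (Cdh5 with Cldn5), with a median of 0.21 over 9 libraries, and 12 of the 15 were positive. The junction genes Pecam1 and Cdh5 had a correlation of 0.64, and the pericyte genes Pdgfrb and Rgs5 of -0.17. Tek was nearer to Pdgfrb (0.63) than to Pecam1 (-0.41). These are descriptions of 9 libraries that share group means and library depth.

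Over the 9 libraries the genes most like the mean of these 6 endothelial genes, among 13818 genes with at least 1 CPM on average, were Trim30d (r = 0.99), Sema3g, Necab1, Efemp1 and Smpdl3a (0.98 or 0.99), all higher in both rd10 groups than in WT. Within groups they were Shmt1 (r = 0.97), Trf, Trim30d, Onecut2 and Mob3c (0.94 to 0.95). Trim30d appeared on both, which use the same 9 libraries, at means of 0.813 CPM in WT, 11.97 CPM in NS and 14.1 CPM in MSC-EVs. For Vegfa they were Csmd2, Ccdc102a and Slc14a1 over the 9 libraries (0.96 to 0.98), and Zcchc12, Pcsk7 and Frem1 within groups (0.96 to 0.98). The likeness over 9 libraries mostly follows the difference between WT and rd10, in which 8972 genes passed the test. A search of 13818 genes over so few libraries can return high r for unrelated genes, and these values were not tested.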

How the data were processed

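RNA-seq of 9 retina libraries was deposited as 1 table of gene values. Per the labels, the submitters' processing notes name fastp, Bowtie2, HISAT2, StringTie 1.3.1 and RSEM; the genome build, annotation and strand setting are not given in the sources used here. The authors deposited estimated counts and FPKM per gene; FPKM was used for levels between genes and in limma. Counts were rounded and tested with edgeR 4.0.16 (R 4.3.3; filterByExpr, TMM scaling, robust quasi-likelihood fit) on the 6 libraries of each comparison, with Benjamini-Hochberg adjustment over all genes tested. A gene was called at an adjusted p below 0.05. CPM (counts in each 1000000) are TMM-scaled over 9 libraries. Ratios were tested by exact two-sided permutation. Alternatives were DESeq2 1.42.0, limma 3.58.1 on log2(FPKM + 1) and log2(FPKM + 0.1), other scalings, filters and designs, each library left out, and MSC-EVs replicates 1 and 2 left out together. Fits were tested on simulated data. The genes and lists were chosen with earlier results of these data known. Of each list, the text names the 2 genes with the smallest adjusted p in each direction in NS against WT and those called in MSC-EVs against NS. Some genes that this rule selects are not reported here. Positions are those of GENCODE on GRCm38. Replicates differed by more than sampling noise.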

Additional observations from a re-analysis of the deposited data

How the results depend on the processing

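Of the values of the 10 genes under the alternatives, 152 of 160 kept their direction and call in NS against WT, 170 of 180 in MSC-EVs against NS and 163 of 170 in MSC-EVs against WT. The numbers called moved with 2 choices. Scaled to the inner retinal neurons they were 4 in NS against WT and 5 in MSC-EVs against WT, and with a doubling or halving required they were 1 and 0. Leaving out 1 library gave 8 to 9 in both, and 0 in MSC-EVs against NS.

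In NS against WT, the log2 fold changes of Tek and Vegfa turned to -0.132 and -0.095 on the neuron scale. In MSC-EVs against NS that scale gave 0.001 for Pecam1 and 0.053 for Cldn5. Cdh5, Flt1 and Pdgfrb turned to -0.016, -0.065 and 0.041 without MSC-EVs replicates 1 and 2 (1 library left), and to -0.01, -0.054 and 0.049 with Y-linked expression as a covariate, which rests on the same library. Without 1 library Cldn5 ranged from -0.084 to 0.053 (without NS replicate 1) and Kdr from -0.051 (without MSC-EVs replicate 1) to 0.129. The cause was not tested. Against WT, without 1 library, the pericyte to endothelial ratio of MSC-EVs lay between -0.153 and 0.065 (without MSC-EVs replicate 2) and its Vegfa to Müller glia ratio between -0.028 (without WT replicate 1) and 0.102. Slco1a4, Fzd4, Hif1a, Hbb-bs and Prkca lost their calls in NS against WT with limma on FPKM.

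Over all genes, 172 were called in MSC-EVs against NS, beside 930 with DESeq2, 1026 with all libraries in 1 fit, 94 with limma on FPKM, 295 without MSC-EVs replicates 1 and 2, and 116 with the Y-linked covariate. Without 1 library the number ranged from 0 to 676. limma on FPKM moved the median log2 fold change of all genes in NS against WT to 0.14 to 0.17, with 6051 higher and 2377 lower for the pseudocount of 1. In the comparisons with WT the replicate numbers did not consistently pair the libraries. Same-numbered libraries had correlations of deviations from -0.08 to 0.29, and in MSC-EVs against NS each correlated best with its own number. The fit with the replicate number as a block called 403 genes there, and 9, 0 and 9 of the 10 genes in the 3 comparisons. Pairing by replicate number cannot change the differences of the ratios, because each number occurs once in each group. Under the block Tyr (adjusted p = 0.106) and Dct (0.117) lost their calls in NS against WT, and Tyr also did with no filter (0.0519).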
